A study of Mus musculus with 16 samples.

Results

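Snora43 is an H/ACA box small nucleolar RNA (snoRNA) gene of the mouse. Among the 1885 small RNA intervals that received reads in at least 1 library, 2 have the exact coordinates of a gene named Snora43 in the GENCODE annotation of the mouse genome, and these 2 intervals are described here. The gene was chosen by its measured counts, which earlier results of the same data described as high in progenitors and highest in MEP. Its own levels are therefore a description, without a test. CMP, a progenitor population, is an exception to that pattern in the values below. The material was bone marrow of wild-type mice, sorted by surface markers, and the labels name no treatment. The labels call 4 populations CLP, CMP, GMP and MEP, the usual abbreviations for progenitors of lymphoid cells, of all myeloid cells, of granulocytes with monocytes, and of megakaryocytes with red cells. The 4 mature populations are called B, T, Myeloid (written "Myloid" in the labels) and Erythroid. Every population has 2 libraries, and the labels give neither the strain, age or sex of the mice nor whether a pair of libraries stands for separate mice. All errors and p values therefore rest on differences among libraries, which could be technical.

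H/ACA snoRNAs guide the conversion of uridine to pseudouridine in ribosomal and other RNAs. Each folds into a pair of hairpins that hold the target in an internal loop, joined by a single-stranded hinge with the H box and followed by the ACA box near the 3′ end, and each is bound by dyskerin and its partner proteins. In mammals most are cut from introns of host transcripts, so that their level depends on transcription of the host, on splicing and on how stable each snoRNA is once it is in its particle. Several host genes make no protein and are known mainly for the snoRNAs they carry.

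Both intervals lie on the minus strand of chromosome 2 in the GRCm38 build. The longer (ENSMUSG00000097052, chr2:26637847-26637985, 139 bases) had 57852 counts over the 16 libraries. The shorter (ENSMUSG00000064858, chr2:26637848-26637974, 127 bases) is nested in it, lacking 11 bases at the 5′ end and 1 at the 3′ end. It had 20 counts, 2 to 6 in each of the 7 libraries that list it, and did not pass the filter on low counts. All values below are therefore those of the longer interval, and the few counts of the nested one cannot be taken as a separate gene. RefSeq places both inside Snhg7 (small nucleolar RNA host gene 7, chr2:26637176-26640244, minus strand), a non-coding host gene. Whether the position is intronic cannot be read from the tables used here, which give Snhg7 without exons. A single other annotated snoRNA lies in Snhg7 on the same strand, Snora17 (ENSMUSG00000077192, chr2:26639190-26639321, 132 bases). It starts 923 bases after the RefSeq start of Snhg7, Snora43 starts 2259 bases after it, and 1204 bases separate them.

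**Figure D1:**
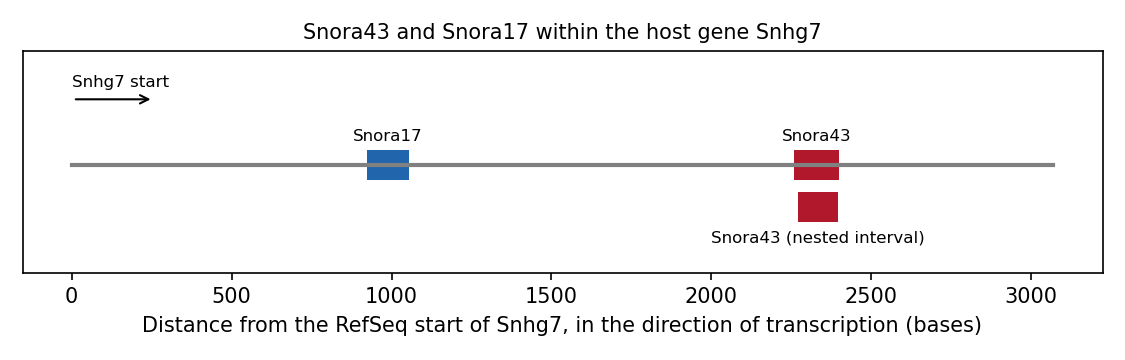
Map of Snhg7 to scale, with the distance from its RefSeq start in bases on the horizontal axis and transcription running to the right. The blue box is Snora17, 923 bases from the start, and the red boxes are the 2 Snora43 intervals, the nested one drawn below.

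The sequences of both snoRNAs of Snhg7 are shown because their levels are compared below. They are the GENCODE M21 transcripts, written 5′ to 3′ as DNA. Capitals mark the match to the H box motif ANANNA in the unpaired hinge and the ACA box; in Snora17 overlapping matches make a run of 8 capitals.
Snora43: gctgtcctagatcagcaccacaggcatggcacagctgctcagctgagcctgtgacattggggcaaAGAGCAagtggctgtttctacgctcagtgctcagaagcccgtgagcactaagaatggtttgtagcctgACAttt
Snora17: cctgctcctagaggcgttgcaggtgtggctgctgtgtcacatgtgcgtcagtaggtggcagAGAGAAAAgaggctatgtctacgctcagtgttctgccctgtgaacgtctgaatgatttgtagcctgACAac

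The hinge was read from predicted folds. For Snora43 it comes from the fold of the nested 127-base interval, which has 2 outer stems with the motif between them; in the fold of all 139 bases (-47.20 kcal/mol) the motif lies inside the second stem-loop. The fold of Snora17 (-50.40 kcal/mol) also has 2 outer stems with the motif between them. The H box of Snora43 begins at base 66 and its ACA at base 134, with 3 bases after it. An ACA followed by at most 3 bases was present in 38 of 41 measured Snora-named snoRNA intervals (92.7%). These include Snora17 and both Snora43 intervals, so the share is not independent of them. It was present in 5 of 83 Snord-named ones (6.02%), which belong to the C/D class. In a global alignment Snora43 and Snora17 matched at 94 of 142 columns (66.2%). Their longest shared runs, TTTGTAGCCTGACA of 14 bases and TCTACGCTCAGTG of 13 bases, both lie in the 3′ hairpin and the tail after it.

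Similar sequences bear on how far the counts belong to the named gene, since the counting of reads that match several places is not given in the sources used here. Besides Snora17 and the nested interval, 7 annotated snoRNA genes matched Snora43 over at least 60 bases, the closest being Gm22504 with 89.9% identity. It was listed in no library. The 4 such intervals that were listed, a nested pair of Gm25053 and one of Gm23377, held 394 counts together, against the 57852 of Snora43. The most abundant (Gm25053, ENSMUSG00000099002, 340 counts) ran from 0.644 CPM in GMP to 1.83 in B. Snora17 differs in this respect: 564 annotated snoRNA genes are similar to it, of which 9 were listed with 918 counts together, against 2861 for Snora17 itself, so its level is less certain than that of Snora43.

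The library totals lay between 8197458 counts (CMP library 1) and 41799906 (CLP library 2). In 6 libraries, those of GMP, MEP and Erythroid, the most similar library by Spearman correlation belonged to another population, while in the other 10 it was the replicate. The share of miRNA counts differed in the same pairs, at 1.40% and 2.33% in GMP, 2.17% and 1.33% in MEP and 1.41% and 2.62% in Erythroid. Lineage miRNAs taken as markers gave only a partial check of the labels. The libraries were selected on a gel for snoRNA-sized inserts, and miRNA intervals held 1.23% (B library 1) to 3.94% (Myeloid library 2) of counts. How far the marker levels depend on that selection was not tested. Mir150 and Mir342, known from lymphocytes, summed to 336 CPM in T and 98.0 in B and to at most 56.7 elsewhere, and Mir223, known from granulocytes and monocytes, was highest in Myeloid at 921 CPM. Mir451a and Mir144, known from red cells, summed to 157 CPM in MEP, 149 in Erythroid, 129 in CLP and 93.1 in GMP. In the remaining populations they were at 48.1 in Myeloid, 38.0 in CMP, 34 in T and 12.3 in B. Mir126a and Mir99a, known from stem and progenitor cells, summed to 34.7 CPM in CMP. In the other progenitors they were at 11.4 in CLP, 13.9 in GMP and 13.3 in MEP. The mature cells had 16.1 in T, 14.3 in Myeloid, 9.82 in Erythroid and 7.60 in B, so these markers set only CMP apart. Mir181a-1 and Mir181b-1, known from B cells and lymphoid progenitors, summed to 119 CPM in T, 75.1 in Myeloid and 73.2 in CMP. They were lower in B, at 68.1, and in CLP, at 34.1, and lowest in MEP, at 33.8.

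Snora43 was highest in MEP and lowest in T. Levels are counts per 1000000 counts of a library total scaled by the trimmed mean of M values (TMM; CPM below). The MEP libraries had 600 and 580 CPM, from 14492 and 9248 counts. The GMP libraries had 278 and 325 CPM. The CLP libraries had 191 and 188 CPM. These 6 libraries stood above all the others. CMP, the remaining progenitor population, was far below them with 64.7 and 70.8 CPM. The Myeloid libraries had 91.6 and 91.2 CPM. The Erythroid libraries had 80.1 and 59.9 CPM, so that CMP lay inside the range of Erythroid and below Myeloid. The B libraries had 39.4 and 45.8 CPM. The T libraries had 25.6 and 22.7 CPM, from 264 and 316 counts, the lowest of all.

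**Figure D2:**
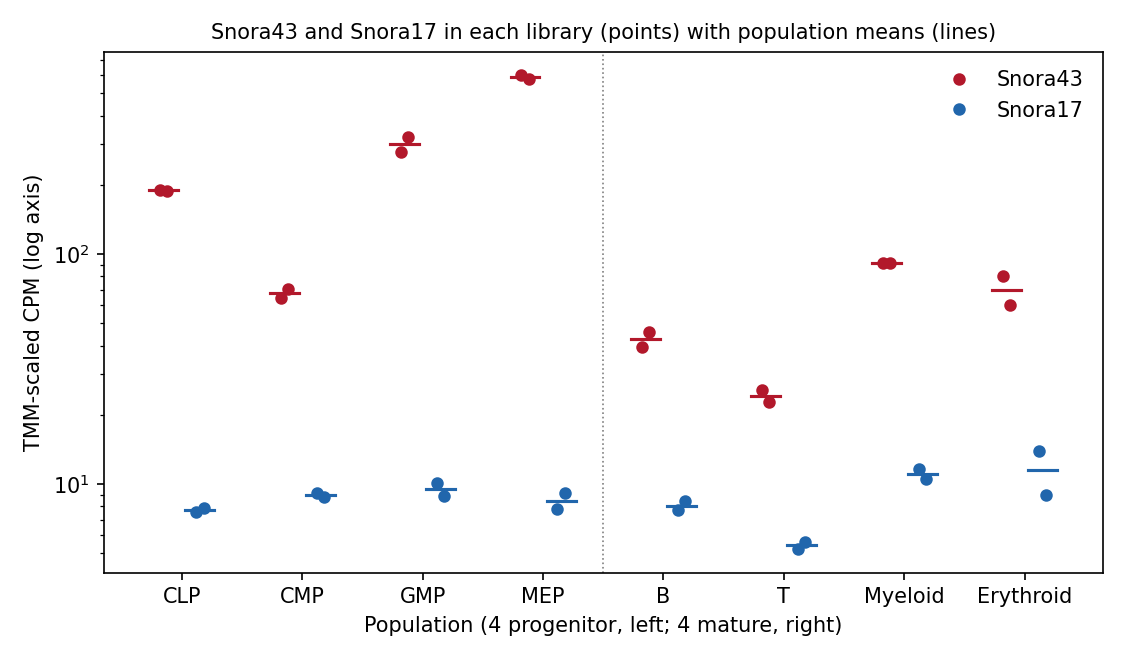
Level of Snora43 (red) and Snora17 (blue) in each of 16 libraries, in CPM on a log axis, with points for libraries and short lines for the means of the 8 populations (4 progenitor populations left of the dotted line). Snora43 runs from 22.7 CPM in a T library to 600 in an MEP library, while Snora17 stays between 5.23 and 14.0.

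In order of the means, MEP had 590 ± 14.6 CPM (SD, n = 2 libraries here and below), GMP 301 ± 32.8, CLP 190 ± 1.86, Myeloid 91.4 ± 0.275, Erythroid 70.0 ± 14.3, CMP 67.7 ± 4.32, B 42.6 ± 4.56 and T 24.1 ± 2.03. Of the 7 steps between neighbours in this order, the libraries overlapped only between Erythroid and CMP. The smallest other step was 1.31-fold, from Erythroid up to Myeloid, and the largest 2.07-fold, from Myeloid up to CLP. The 95% exact Poisson interval, taken on read pairs, was 21.4 to 30.3 CPM for T library 1, the library with fewest counts, and 587 to 614 for MEP library 1. At the step from Erythroid to Myeloid the intervals of Erythroid library 1 (74.1 to 86.4 CPM) and Myeloid library 1 (85.4 to 98.1) overlapped. That of Erythroid library 2 (55.2 to 64.9) lay below those of both Myeloid libraries. Overlap of intervals is not a test of a difference, and that step was not tested against counting error. Without molecular identifiers such intervals hold for counting error alone. In bulk populations such as these, fewer cells with the RNA and less of it per cell cannot be told apart.

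Among the progenitors the levels spread widely. Snora43 was 8.71-fold higher in MEP than in CMP and 4.45-fold higher in GMP than in CMP, the population held to give rise to both. It was 1.96-fold higher in MEP than in GMP. Between CLP and CMP the ratio was 2.80-fold, with 2.66 to 2.95 between single libraries.

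In each branch the progenitor was above the mature cells. MEP was 8.43-fold above Erythroid, with 7.24 to 10.02 between single libraries. The widest and narrowest of these fall with the miRNA share: 10.02-fold is MEP library 1 over Erythroid library 2, the libraries with the higher share, and 7.24-fold is MEP library 2 over Erythroid library 1, those with the lower share. Fitted without the libraries of lower share the log2 difference was 3.32, and without those of higher share 2.79. GMP was 3.30-fold above Myeloid, with 3.04 to 3.56 between libraries. CLP was 4.45-fold above B and 7.86-fold above T. B was itself 1.77-fold above T. As fitted log2 differences these are 3.08 for MEP against Erythroid, 1.72 for GMP against Myeloid and 2.56 for CLP against the mean of B and T. The mean of the 4 progenitor populations lay 2.11 above that of the 4 mature ones, and MEP 2.84 above the mean of the other 7 populations. The summed red cell markers overlapped between MEP and Erythroid, with 187 and 127 CPM in MEP against 114 and 184 in Erythroid. They were at 129 CPM in CLP, where the label names a lymphoid progenitor, and at 93.1 in GMP, against 38.0 in CMP. Mir223 was at 308 and 155 CPM in the libraries of MEP and at 297 and 590 in those of Erythroid, whose mean of 443 was second to Myeloid. The part of marker levels in the result was not tested.

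Between its highest and lowest population mean Snora43 changed 24.4-fold. Among 320 features whose mean reached 10 CPM, Mir150 alone had a wider range, 27.8-fold with the highest level in T, and the median range was 2.32-fold. The 14 other Snora-named snoRNAs at that level had ranges of 1.47-fold to 5.30-fold, the widest in Snora31, which was highest in CLP.

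Snora17, from the same host gene, varied far less than Snora43. The CLP libraries had 7.59 and 7.88 CPM of Snora17, the CMP libraries 9.16 and 8.79, the GMP libraries 10.1 and 8.88, and the MEP libraries 7.79 and 9.15. The B libraries had 7.71 and 8.44 CPM, the T libraries 5.23 and 5.60, the Myeloid libraries 11.6 and 10.5, and the Erythroid libraries 14.0 and 9.01. Its population means spanned 2.12-fold, from T to Erythroid, and MEP lay among the middle ones. That range is near the median of 2.32-fold over the features whose mean reached 10 CPM, a level that Snora17 itself did not reach. Between progenitors and mature cells Snora17 had a log2 difference of 0.00 (SE 0.103, 95% interval -0.23 to 0.23, Benjamini-Hochberg adjusted p = 1.00 over 749 features by the quasi-likelihood test of edgeR). The interval leaves out a difference of the size given above for Snora43. That size belongs to a gene chosen for its pattern, so the contrast between these snoRNAs is described and not tested. With library totals as the scale it was at 0.23 (adjusted p = 0.0574 by edgeR), where the median of all features also moved up by 0.231. Nor did Snora17 pass the test in MEP against the other 7 populations (-0.03, adjusted p = 0.901 by edgeR), CLP against B and T (0.23, adjusted p = 0.324 by edgeR), GMP against Myeloid (-0.22, adjusted p = 0.441 by edgeR) or MEP against Erythroid (-0.44, adjusted p = 0.228 by edgeR). In GMP against Myeloid both GMP libraries were below both Myeloid ones, and in MEP against Erythroid the libraries overlapped. Matched by miRNA share, however, MEP was the lower both times. With higher share, MEP library 1 had 7.79 CPM and Erythroid library 2 had 9.01. With lower share, MEP library 2 had 9.15 and Erythroid library 1 had 14.0. This matching was chosen after seeing the data and was not tested.

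The ratio of these snoRNAs within a library does not depend on how libraries are scaled. Per base of interval, Snora43 had 73.2 and 60.2 times the counts of Snora17 in the MEP libraries. In the GMP libraries the ratio was 26.2 and 34.7, and in the CLP libraries 23.9 and 22.7. The other 5 populations had ratios of at most 8.21 in any library. In CMP it was 6.70 and 7.65, in Myeloid 7.49 and 8.21, and in Erythroid 5.44 and 6.31. It was lowest in lymphocytes, at 4.85 and 5.15 in B and 4.64 and 3.85 in T. Snora43 thus had the more counts per base of the pair in all 16 libraries, by 3.85 to 73.2 times. How well each RNA is captured in such libraries was not measured, and the level of Snora17 is the less certain. The ratio is therefore read between populations, and its size is no measure of relative abundance in the cells.

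A second measure free of library scaling is the share that Snora43 takes of all counts on Snora-named intervals, its own counts included. It took 33.0% and 32.1% in the MEP libraries, 18.4% and 20.9% in GMP and 16.4% and 17.8% in CLP. It took 9.03% and 9.29% in Myeloid, 7.79% and 8.20% in CMP and 6.26% and 5.95% in Erythroid. The B libraries had 3.89% and 4.41%, and the T libraries 3.30% and 3.09%. By share the libraries of CMP and Erythroid did not overlap, unlike by CPM, and no neighbours overlapped. Per length, Snora43 ranked first of 38 tested Snora-named snoRNAs in MEP, with 4244 CPM per kilobase against 2324 for Snora73a (U17), an H/ACA snoRNA that acts in cleavage of the rRNA precursor. In every other population Snora73a was the first. Snora43 ranked 2 in GMP and CLP, 4 in Myeloid and Erythroid, and 6 in CMP, B and T.

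**Figure D3:**
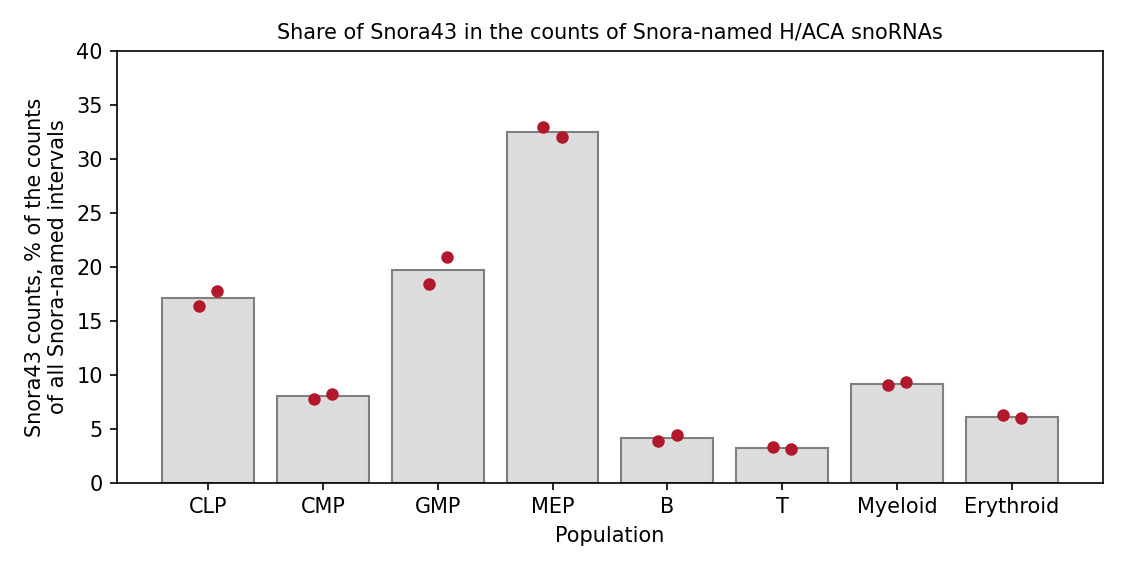
Counts of Snora43 as a percent of the counts of all Snora-named intervals, with points for the 2 libraries and grey bars for their mean in each of 8 populations. The share is 32.1% to 33.0% in MEP and under 5% in B and T.

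The class around Snora43 was described with the snoRNA genes whose name begins with Snora. Without Snora43, 39 such intervals were listed and 37 passed the filter on low counts, which can keep a feature through the populations where it is high. Snora-named genes are the part of the H/ACA class that can be told from the name alone. Between progenitors and mature cells, 17 of the 37 passed, against 49.8% of all 749 tested features. Of them 11 were higher in progenitors (29.7%), against 26.7% of all features, and 6 were lower (16.2%), against 23.1%. Their median log2 difference was 0.20, beside 0.07 over all features. With this scaling the share of rises is near that of all features. With library totals as the scale 21 of the 37 were higher and 0 lower, and the calls over all features split into 309 higher and 107 lower, in place of 200 and 173, so the split of the class depends on the scale. With counts summed by population, so that 8 populations were the units, edgeR called 0 of the 37 (6 at an unadjusted p under 0.05) and 21 of 737 features, while DESeq2 on the 16 libraries called 17 of the 37.

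Among the 14 Snora-named snoRNAs whose mean reached 10 CPM, log2 differences ran from -0.44 to 0.92, all below the 2.11 of Snora43. The highest was Snora26 (ENSMUSG00000093355), which rose by 0.92 ± 0.0723 (log2 ± SE, edgeR adjusted p = 1.21e-06). Its progenitor libraries held 15.6 to 27.0 CPM and its mature ones 5.81 to 15.8, so the groups just overlapped, with CMP at a mean of 16.1 CPM and Myeloid at 15.7. Snora31 rose by 0.80 ± 0.184 (adjusted p = 0.00393 by edgeR), from 3.30 to 9.89 CPM in mature libraries and 4.997 to 23.7 in progenitor ones. Of scarcer members, Snora24 rose by 0.84 ± 0.121 (adjusted p = 0.000151 by edgeR), with 4.95 to 9.01 CPM in progenitors and 2.44 to 6.75 in mature cells. Snora47 rose by 1.65 ± 0.316 (adjusted p = 0.00116 by edgeR), with 1.16 to 4.36 CPM in progenitors and 0 to 1.00 in mature cells, and by 3.02 without T library 2. Snora2b passed as well, with 0.208 to 1.23 CPM in progenitors and 0 to 0.603 in mature cells; it was not listed in 2 libraries and had at most 24 counts, so its fitted difference of 2.14 depends on how low counts are treated and is no measure of size.

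The largest falls were smaller. Snora5c fell by 0.58 on the log2 scale (SE 0.153), Snora81 by 0.54 (SE 0.173), Snora30 by 0.44 (SE 0.110), Snora65 by 0.43 (SE 0.106) and Snora7a by 0.40 (SE 0.128), with edgeR adjusted p of 0.00824, 0.0216, 0.00645, 0.00538 and 0.0214. None of these 5 passed with library totals as the scale, and none of the 10 named rises and falls with populations summed (adjusted p 0.0614 to 0.549 by edgeR). Snora65 and Snora7a did not pass without the filter on low counts either (adjusted p = 0.0857 and 0.146 by edgeR). Snora81 lost the call without CLP 2, CMP 1, GMP 2, MEP 2, T 1, Myeloid 1 or Erythroid 1, with edgeR adjusted p up to 0.0757. Snora7a lost it without CMP 1, CMP 2, MEP 2, B 2, T 1, Myeloid 1, Myeloid 2 or Erythroid 1, with edgeR adjusted p up to 0.0818. Snora2b lost it without the libraries of lower miRNA share (adjusted p = 0.0609 by edgeR).

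**Figure D4:**
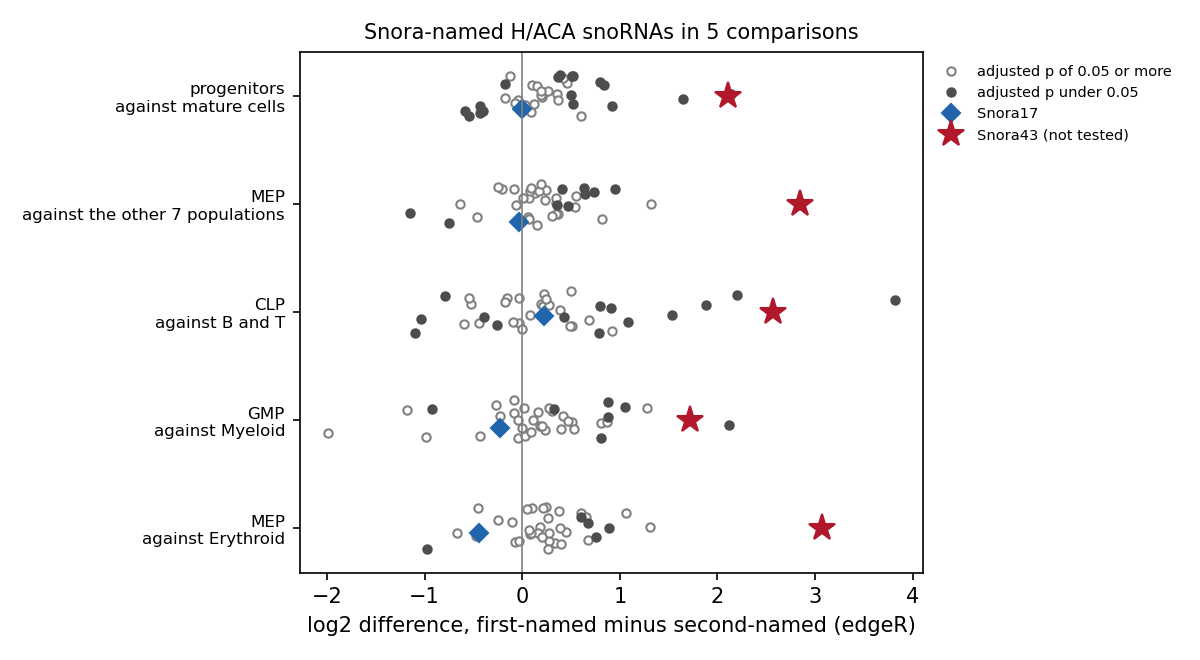
Log2 differences of 37 Snora-named snoRNAs (circles, filled where the edgeR adjusted p is under 0.05) in 5 comparisons, with Snora17 as a blue diamond and Snora43, which was not tested, as a red star. The horizontal axis is the first-named minus the second-named group; Snora43 lies at 1.72 to 3.08 and Snora17 between -0.44 and 0.23.

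In MEP against the other 7 populations 9 of 37 passed, against 28.4% of all features, 7 higher and 2 lower (18.9% and 5.41%), against 20% and 8.41%. The split of all features, 150 higher and 63 lower, was 73 and 74 with snoRNA and scaRNA genes alone and 111 and 97 with DESeq2. Snora26 was higher by 0.95 ± 0.0989 (adjusted p = 4.70e-05 by edgeR) and Snora7a lower, at -1.15 (SE 0.214). The 9 calls became 5 without CLP library 1, B library 1 or T library 2 and 3 without MEP library 2. In CLP against B and T 14 passed, against 43.3% of all features, 9 higher and 5 lower, against 25.2% and 18%. Snora31 (1.88 ± 0.302) and Snora26 (1.54 ± 0.120) were among the higher ones. The 14 calls became 8 without CLP library 1, and with library totals 20 were higher and 2 lower, where all features split into 312 and 59 in place of 189 and 135. In GMP against Myeloid 7 passed, against 31.8% of all features, 6 higher and 1 lower, against 16.3% and 15.5%, and 3 were called without Myeloid library 1 or 2. Snora24 was among those higher, by 0.88 ± 0.237, while Snora26 was at 0.17 (adjusted p = 0.408 by edgeR). In MEP against Erythroid 5 passed, against 9.88% of all features, 4 higher and 1 lower, against 5.47% and 4.41%, with Snora26 higher by 0.89 ± 0.142. Leaving out any 1 library other than GMP library 1, GMP library 2 or MEP library 1 gave 2 or 3 calls there. No Snora-named snoRNA passed in all 3 branches in 1 direction, and of those whose mean reached 10 CPM none had a larger difference than Snora43 in any of the 5 comparisons. Below that level Snora47 did in GMP against Myeloid, at 2.12 (SE 0.586). The fitted values of Snora2b in progenitors against mature cells and in CLP against B and T were larger as well, but with so few counts they are no measure of size.

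Likeness to Snora43 was measured as Pearson's r of the log2 level, taken as log2(CPM + 0.5), over the 8 population means, for 319 other features whose mean reached 10 CPM. It is a description over 8 points that share libraries and scaling. The median r was 0.07. The 5 highest were the snRNA intervals Gm22973 (ENSMUSG00000065232, r = 0.96), Gm24497 (r = 0.91) and Gm26316 (r = 0.89), each 191 bases long, and the snoRNAs Snora26 (r = 0.90) and Gm22786 (r = 0.90). Over the 16 libraries these r were 0.95, 0.90, 0.87, 0.89 and 0.84. The sequences of the snRNA intervals of equal length were not compared, and the counting of reads that match several places is not given. Whether their counts stand for separate RNAs therefore cannot be told. Gm22973 had 42.5 CPM in MEP, 34.6 in GMP, 28.1 in CLP and 15.6 in CMP, and 9.63 in T, a range of 4.41-fold. Its order of populations was that of Snora43 except that Erythroid, at 24.0 CPM, stood above Myeloid, at 22.1. Gm22786 had the flattest profile of the 5, with 23.6 CPM in MEP and 10.6 in T. All 5 were lowest in T and next lowest in B, as Snora43 was, and their ranges of 2.23-fold to 4.41-fold were far narrower than that of Snora43. Over the 14 Snora-named snoRNAs at that level r ran from -0.38 to 0.90 with a median of 0.58. For Snora17, which lies below that level, r was 0.33.

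**Figure D5:**
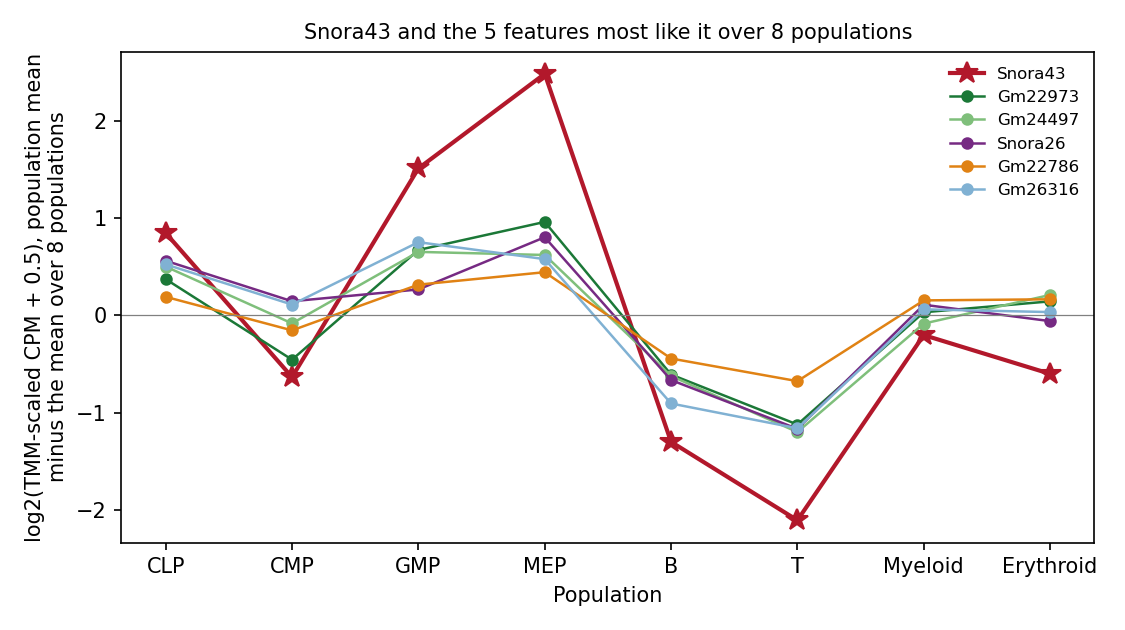
Population means of log2(CPM + 0.5), each less its own mean over the 8 populations, for Snora43 (red stars) and the 5 features with the highest r. All 6 profiles are lowest in T and next lowest in B; that of Snora43 spans the widest range, and its CMP value lies below its mean while those of Snora26 and Gm26316 do not.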

How the data were processed

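Small RNA libraries of sorted mouse bone marrow cells were selected on a gel for snoRNA-sized inserts, per the labels' protocols. The submitters' processing notes name Trimmomatic 0.38, Bowtie2 2.3.4.1 and GRCm38; the counting program, its annotation and its use of strand are not given in the sources used here. The deposited values are raw counts per interval, from the authors, 1 file per library, listing intervals with at least 1 count. Between 89.0% and 93.2% of values were even, as when both mates of a pair are counted. A missing interval was taken as 0.

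Intervals were matched by coordinates to GENCODE M21 genes; the host gene came from RefSeq (GRCm38.p6). Counts were fitted in edgeR 4.0.16 (R 4.3.3) with filterByExpr at a minimum count of 10 (749 features), TMM scaling and a quasi-likelihood model with 1 mean per population over 16 libraries; p values were adjusted by Benjamini-Hochberg with a threshold of 0.05. An SE is the log2 difference over the square root of F, except for Snora17, where it comes from the curvature of the fit. The fitting script was tested on simulated data. Folds were predicted with RNAfold 2.7.2 and similar transcripts found with blastn 2.17.0. Replicate numbers were not taken to pair the libraries.

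The member, the lists and the naming rule were chosen with earlier results of these data known. Named were the snoRNAs of the host, the 5 features most like Snora43, and the 5 largest called rises and falls among Snora-named snoRNAs, with any called in all 3 branches. Snora73a, Mir150, Gm22504, Gm25053 and Gm23377 were named after their values were seen. Alternatives were RLE or library totals, other filters, DESeq2 1.42.0, a replicate block, summed populations, snoRNAs alone and each library left out.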

Additional observations from a re-analysis of the deposited data

Results flagged for a closer look

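Snora30 and Snora65 had all libraries of 1 branch apart in one direction and all of another branch apart in the other. Snora30 was lower in both CLP libraries than in all B and T libraries, with a log2 difference of -1.04 (adjusted p = 0.00132 by edgeR), and higher in both MEP libraries than in both Erythroid libraries, at 0.21 (adjusted p = 0.643 by edgeR). Snora65 was at -1.10 in CLP against B and T (adjusted p = 0.000609 by edgeR). In MEP against Erythroid it was at 0.05 (SE 0.212, adjusted p = 0.9005 by edgeR). That branch sets 2 libraries against 2 and neither snoRNA passed in it, so a reversal between branches is not shown. The share of all features with such a pattern is not given here. The differences between branches were not tested.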

How the results depend on the processing

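The Snora43 differences kept their sign in all 131 alternatives and moved by less than the SD between libraries (0.141) in 123. With library totals the value was 2.34 for progenitors against mature cells and 3.01 for CLP against B and T, and with populations summed 2.30 for the former. MEP against Erythroid was 3.32 without the libraries of lower miRNA share (GMP 1, MEP 2, Erythroid 1) and 2.79 without those of higher share, both chosen after seeing the data. With 1 library left out the values were 1.99 to 2.20, 2.73 to 2.88 (MEP against the other 7), 2.43 to 2.71 (CLP), 1.69 to 1.79 (GMP) and 2.88 to 3.32 (MEP against Erythroid). The nested interval did not pass the filter and gave no value.

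Snora17 did not pass in the alternatives run for progenitors against mature cells; the 10 CPM filter left it out. Its difference was above 0 on library totals (0.23), without a filter (0.01), under the replicate block (0.00, also with the MEP numbers crossed) and without the libraries of lower miRNA share (0.06), and ran from -0.09 to 0.12 with 1 library left out.

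Snora-named calls, 17 for progenitors against mature cells, were 9 with the 10 CPM filter, 0 with populations summed, 18 with the replicate block and 13 to 18 with 1 library left out. For MEP against the other 7 they were 4 with no filter, 5 with the 10 CPM filter and 3 to 10 with 1 library left out. For CLP against B and T they were 22 with library totals, 9 with the 10 CPM filter and 8 to 15. For GMP against Myeloid they were 4 with either filter change, 12 without the libraries of higher miRNA share and 3 to 7. For MEP against Erythroid they were 2 with RLE, 1 with no filter, 3 with the 10 CPM filter and 2 to 4.

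Calls over all features, 373 for progenitors against mature cells, were 218 with the 10 CPM filter, 21 with populations summed, 188 with snoRNAs alone and 322 to 392 with 1 library left out. For MEP against the other 7 they were 95 to 211 (lowest without MEP library 2). For CLP they were 194 with the 10 CPM filter, 173 with snoRNAs alone, and 196 to 347 (lowest without CLP library 1). For GMP they were 120 with snoRNAs alone and 137 to 252 (lowest without Myeloid library 1). For MEP against Erythroid they were 39 with RLE, 49 with no filter (13 higher, 36 lower), 126 without the libraries of lower miRNA share (46 and 80), 130 without those of higher share (46 and 84), and 30 to 81 (lowest without MEP library 2). With library totals the split of calls was 309 higher and 107 lower for progenitors, 312 and 59 for CLP, and 69 and 29, in place of 41 and 33, for MEP against Erythroid.

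Of the 5 features most like Snora43, 3 were still among the 5 with library totals and 2 without the level cutoff. The replicate numbers were not taken as pairs, since differences between libraries 1 and 2 did not correlate above 0.1 in all 28 pairs of populations. The 21 pairs without MEP were all above 0, up to 0.82 and over 0.1 in 18, and the 7 pairs with MEP all below 0, from -0.91 to -0.10. With the MEP numbers crossed, a block chosen after seeing the data, 390 features and 18 Snora-named snoRNAs were called for progenitors against mature cells, and 365 and 18 with the numbers as labelled. The cause was not tested.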
